A study of Mus musculus with 6 samples.

Results

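The 9 genes described here are the muscle atrophy ubiquitin ligases *Fbxo32* (MAFbx, also called atrogin-1), *Trim63* (MuRF1), *Fbxo30* (MUSA1), *Fbxo21* (SMART) and *Fbxo31*, the forkhead factors *Foxo1*, *Foxo3* and *Foxo4*, and *Eif4ebp1*, which codes for a repressor of translation. They were chosen by name, and each of the 9 symbols had 1 probe set among the 22206 probe sets (19505 genes with a symbol) of the array used (Affymetrix Mouse Clariom S, with 1 colour and several short probes for a gene). Expression was measured in the triceps (the muscle given in the labels and methods) of male SAMP-10 mice, a senescence-accelerated strain, with 1 array per mouse. The u40Hz-stimulation group (mice 4, 10 and 11) had received unmodulated vibration and inaudible low-frequency sound at 40 Hz around the clock for 5 weeks. The control group (mice 1, 6 and 8) had not been stimulated. By the results text and figure legends of the study, mice of both groups were 31 weeks old at the tests after the stimulation. The feeding state and the time of day at which the muscle was taken could not be taken from the sources used here. No young mice and no mice of a strain that ages normally were hybridized, so the comparison is between stimulated and unstimulated mice of 1 senescence-prone strain.

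Muscle loses protein when breakdown exceeds synthesis, and much of the breakdown of myofibrils runs through ubiquitin ligases that mark proteins for the proteasome. FOXO factors enter the nucleus when insulin and IGF-1 signalling through AKT is low, and there they switch on *Fbxo32*, *Trim63* and other genes of the atrophy programme, which are therefore known as atrogenes. 4E-BP1, the product of *Eif4ebp1*, holds back cap-dependent translation until mTORC1 phosphorylates it. Array signals report transcripts only. The phosphorylation that controls FOXO factors and 4E-BP1 is not measured by them.

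In the RefSeq table of the mouse assembly GRCm38.p6, *Fbxo32* lies at chr15:58175879-58214892, *Trim63* at chr4:134315120-134329629, *Fbxo30* at chr10:11281330-11305750, *Fbxo21* at chr5:117976770-118010198 and *Fbxo31* at chr8:121549443-121578864. *Foxo1* lies at chr3:52268337-52350109, *Foxo3* at chr10:42181845-42276695, *Foxo4* at chrX:101254261-101260873 and *Eif4ebp1* at chr8:27260327-27275656. The promoter table of the same source matched 6 of the 9 genes, with a window of 300 bases that runs from 250 bases before to 50 bases after the transcription start. *Fbxo32*, *Foxo4* and *Eif4ebp1* had no entry. The window of *Trim63* is shown because it was the only 1 of the 6 that held a match to any of the 5 motifs searched. It covers chr4:134314870-134315169 on the plus strand, and the capitals mark the 3 matches.
*Trim63*: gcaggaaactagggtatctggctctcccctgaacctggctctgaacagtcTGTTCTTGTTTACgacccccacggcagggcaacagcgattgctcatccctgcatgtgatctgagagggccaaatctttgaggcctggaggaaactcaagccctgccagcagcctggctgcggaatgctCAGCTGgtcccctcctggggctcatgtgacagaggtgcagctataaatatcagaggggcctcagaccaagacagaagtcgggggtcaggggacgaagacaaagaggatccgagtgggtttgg
The first match, TGTTCT at -200 from the start, has the letters of a glucocorticoid half-site. It is followed without a gap by TGTTTAC at -194, which is the FOXO motif GTAAACA read on the other strand. The 2 matches do not overlap. The third, CAGCTG at -72, is an E-box, the type of element that MyoD and myogenin bind. Both strands of all 32851 promoters in the table were searched in the same way: 3.65% held the FOXO motif, 19.0% the glucocorticoid half-site and 16.3% the E-box. The insulin response sequence CAAAACA was found in 6.28% of all promoters and the clock E-box CACGTG in 7.15%, and in none of the 6 windows. A match of letters is a description of the window and does not show that a factor binds there.

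The values are log2 signals, so that a difference of 1 is a 2-fold difference, and differences are u40Hz minus control. They were tested with limma, and the Benjamini-Hochberg adjustment covered all 22206 probe sets. An adjusted p under 0.05 was reached by 0% of the probe sets (smallest adjusted p = 0.606), and 7.01% had an unadjusted p under 0.05. Array medians lay between 5.53 and 5.61. The p-values measure the spread among these 6 mice, and an exact two-sided permutation test of 3 mice against 3 cannot give a p under 0.1. u40Hz mouse 4 stood apart. It had the highest or the lowest signal of the 6 mice for 42.0% of all probe sets, against 26.8% to 35.9% for the other mice. Its mean over 9 adipocyte markers was 12.16, against 7.15 and 7.43 in u40Hz mice 10 and 11 and 6.67 to 8.20 in the control mice. *Cidea* (12.40) and *Retn* (11.89) were high in mouse 4 and at most 5.22 and 5.69 in any other mouse. The 10 fast fibre markers averaged 19.17 to 19.22 in the u40Hz-stimulation group and 18.99 to 19.38 in the control group, as a fast limb muscle has it, with 2 of them at the top of the scale on every array. The mean over 8 slow fibre markers was 9.46 to 12.21 per u40Hz mouse and 7.42 to 13.00 per control mouse. Of 8 tenocyte markers, 7 had a lower mean and an unadjusted p under 0.05, with list means of 6.43 to 7.33 in the u40Hz-stimulation group and 7.52 to 8.85 in the control group. In whole muscle, fewer cells of a type and less RNA per cell cannot be told apart.

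None of the 9 genes differed between the groups by an adjusted p under 0.05, and none had an unadjusted p under 0.05, where 7.01% of all probe sets did (3.86% with a higher and 3.15% with a lower mean). The u40Hz-stimulation group had the lower mean for 6 genes, namely *Fbxo32*, *Trim63*, *Fbxo31* and the 3 FOXO factors, and the higher mean for *Fbxo30*, *Fbxo21* and *Eif4ebp1*. Over all probe sets 48.6% had a lower mean. The median log2 fold change was -0.09 over the 9 genes and 0.01 over all probe sets. Of the 11104 probe sets at or above the median signal, in which 8 of the 9 genes fall, 53.9% were lower on average and the median was -0.03. The groups did not overlap for 3 of the 9 genes (33.3%), 1 higher (*Fbxo21*) and 2 lower (*Fbxo31* and *Foxo3*), where 12.4% of all probe sets did not overlap, 6.40% higher and 6.05% lower.

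**Figure D1:**
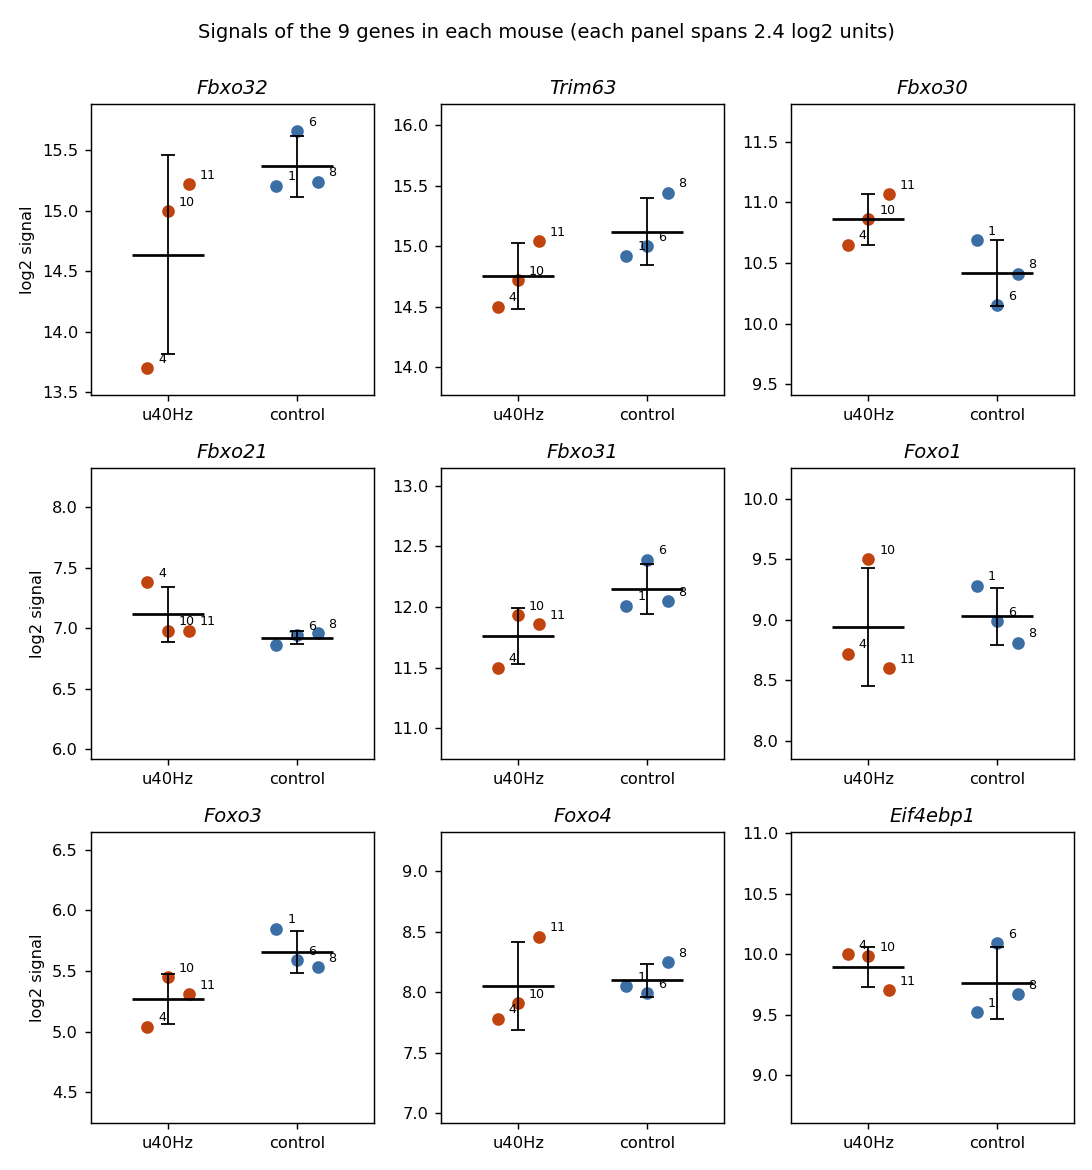
Log2 signal of each of the 9 genes in each mouse (numbered points), with u40Hz mice on the left and control mice on the right of every panel, and with bars for the group mean and SD (n = 3 each). *Fbxo32* in u40Hz mouse 4 (13.70) lies below the other 5 mice (15.00 to 15.66), and the groups are separate in the panels of *Fbxo21*, *Fbxo31* and *Foxo3*.

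*Fbxo32* codes for the F-box protein that brings its targets, among them eIF3f and MyoD, to an SCF ligase complex. Its signal was 13.70, 15.00 and 15.22 in u40Hz mice 4, 10 and 11, against 15.21, 15.66 and 15.24 in control mice 1, 6 and 8. Mouse 4 was lowest by far, mouse 10 lay just below the control mice, and mouse 11 lay within their range. The group means were 14.64 ± 0.82 in the u40Hz-stimulation group and 15.37 ± 0.25 in the control group (SD, n = 3 each), a log2 fold change of -0.73 (SE 0.38, 95% interval -1.60 to 0.14). This is 0.603 times the control level, with an interval of 0.330 to 1.10. The difference did not pass the test (limma unadjusted p = 0.0896, adjusted p = 0.721, exact permutation p = 0.2). Without mouse 4, in which the adipocyte markers were high, the log2 fold change was -0.26 (limma unadjusted p = 0.297). With the mean of the adipocyte markers as a covariate it was -0.29. Since these markers were high in mouse 4 alone, the 2 fits are nearly the same check. Adipocyte RNA cannot be told apart from other traits of that mouse. The part of the adipocyte RNA in the low *Fbxo32* signal was not tested beyond these values. Without u40Hz mouse 11 the difference was -1.02 (limma unadjusted p = 0.033, adjusted p = 0.737).

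*Trim63* codes for MuRF1, a RING-finger ligase of the sarcomere that acts on thick filament proteins, and its promoter window is the one printed above. Its signal was 14.50, 14.72 and 15.04 in u40Hz mice 4, 10 and 11, against 14.92, 15.00 and 15.44 in control mice 1, 6 and 8. Mice 4 and 10 lay below all control mice, while mouse 11 lay among them. The means were 14.75 ± 0.27 in the u40Hz-stimulation group and 15.12 ± 0.28 in the control group, and the log2 fold change was -0.37 (SE 0.23, 95% interval -0.89 to 0.16, or 0.539 to 1.12 times the control level). The test was not passed (limma unadjusted p = 0.147, adjusted p = 0.752, exact permutation p = 0.3). The difference was -0.24 without mouse 4 and -0.21 without control mouse 8, the mouse with the highest signal.

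*Fbxo30*, the F-box protein MUSA1, is held down in muscle by BMP signalling and is induced after denervation. Its mean difference had the opposite sign to those of MAFbx and MuRF1. The signal was 10.65, 10.86 and 11.07 in u40Hz mice 4, 10 and 11, against 10.69, 10.15 and 10.41 in control mice 1, 6 and 8. Mice 10 and 11 lay above all control mice, and mouse 4 lay just below control mouse 1. The means of 10.86 ± 0.21 in the u40Hz-stimulation group and 10.42 ± 0.27 in the control group differed by 0.44 (SE 0.22, 95% interval -0.05 to 0.94, or 0.963 to 1.92 times the control level). This was the smallest unadjusted p of the 9 genes (limma unadjusted p = 0.0741, adjusted p = 0.717, exact permutation p = 0.2). Unlike the difference of *Fbxo32*, that of *Fbxo30* was larger without mouse 4, at 0.55 (limma unadjusted p = 0.0499, adjusted p = 0.762), and it was 0.58 without control mouse 1 (limma unadjusted p = 0.0415, adjusted p = 0.616). The difference was smaller in other fits, at 0.31 without control mouse 6, 0.34 without u40Hz mouse 11 and 0.31 with the slow fibre covariate.

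*Fbxo21*, known as SMART in muscle, is another F-box protein that FOXO factors induce on denervation. It was measured at 7.38, 6.98 and 6.98 in u40Hz mice 4, 10 and 11, against 6.86, 6.94 and 6.96 in control mice 1, 6 and 8. The groups did not overlap, but the gap between them was only from 6.98 to 6.96, and mouse 4 alone was clearly higher. The log2 fold change was 0.19 (SE 0.19, 95% interval -0.25 to 0.64, limma unadjusted p = 0.348, adjusted p = 0.845), and it was 0.06 without mouse 4. The exact permutation p of 0.1 is the smallest that 3 mice against 3 allow.

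*Fbxo31* codes for an F-box protein best known for the turnover of cyclin D1, and it belongs to the FOXO-dependent ligases of atrophying muscle. The signal was 11.50, 11.93 and 11.86 in u40Hz mice 4, 10 and 11, against 12.01, 12.39 and 12.05 in control mice 1, 6 and 8. All u40Hz mice lay below all control mice, with mouse 4 again lowest. The means of 11.76 ± 0.23 in the u40Hz-stimulation group and 12.15 ± 0.21 in the control group gave a log2 fold change of -0.39 (SE 0.21, 95% interval -0.87 to 0.09, or 0.548 to 1.07 times the control level). The limma test was not passed (unadjusted p = 0.101, adjusted p = 0.73, exact permutation p = 0.1). Without mouse 4 the difference was -0.26.

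**Figure D2:**
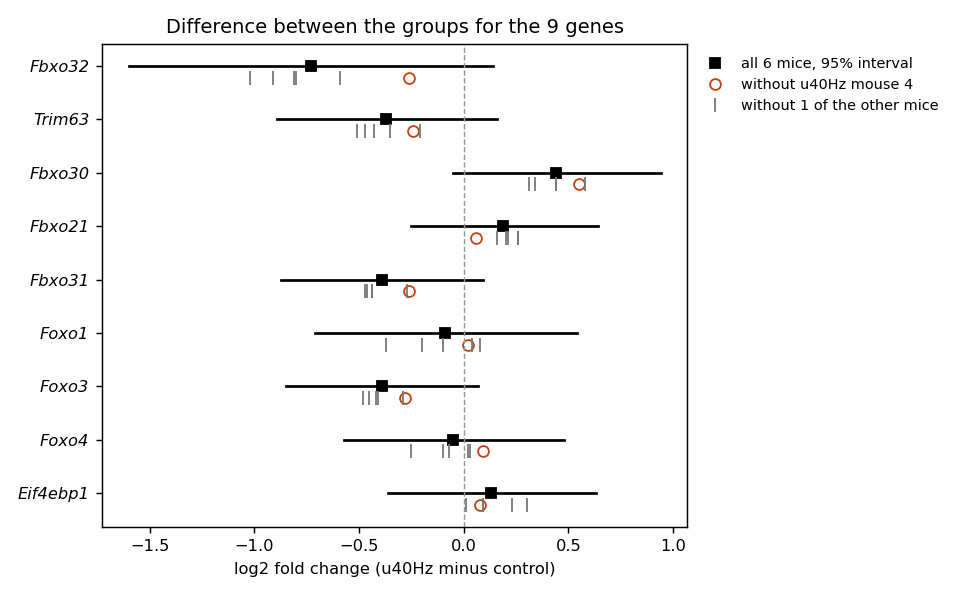
Log2 fold change (u40Hz minus control) of each of the 9 genes, with the limma estimate from all 6 mice and its 95% interval (squares and lines), the estimate without u40Hz mouse 4 (open circles) and the estimates without 1 of the other mice (ticks). Every interval spans 0, and the estimate of *Fbxo32* is -0.73 with all mice and -0.26 without mouse 4.

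The 3 FOXO factors overlap in their targets, and FOXO1 and FOXO3 are the ones most studied as drivers of muscle wasting. *Foxo3* was measured at 5.04, 5.45 and 5.31 in u40Hz mice 4, 10 and 11, against 5.85, 5.59 and 5.53 in control mice 1, 6 and 8. The u40Hz mice all lay below the control mice, the nearest values being 5.45 and 5.53. The means were 5.27 ± 0.21 in the u40Hz-stimulation group and 5.66 ± 0.17 in the control group, and the log2 fold change was -0.39 (SE 0.20, 95% interval -0.85 to 0.07, limma unadjusted p = 0.0861, adjusted p = 0.717, exact permutation p = 0.1). Its probe set was dim, with a mean under the median of all probe sets (5.57). The difference was -0.28 without mouse 4, and -0.48 with the slow fibre marker mean as a covariate (limma unadjusted p = 0.0482, adjusted p = 0.771).

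*Foxo1* differed more among mice of a group than between the groups. Its signal was 8.72, 9.50 and 8.60 in u40Hz mice 4, 10 and 11, against 9.28, 8.99 and 8.81 in control mice 1, 6 and 8. u40Hz mice held both the highest and the lowest signal. The log2 fold change was -0.09 (SE 0.27), and its 95% interval of -0.71 to 0.54 includes changes of 0.610 to 1.45 times the control level (limma unadjusted p = 0.76, adjusted p = 0.959, exact permutation p = 0.8).

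*Foxo4* was measured at 7.78, 7.91 and 8.46 in u40Hz mice 4, 10 and 11, against 8.05, 7.99 and 8.25 in control mice 1, 6 and 8. The control mice all lay between u40Hz mouse 10 and u40Hz mouse 11. The log2 fold change was -0.05 (SE 0.23, 95% interval -0.57 to 0.48, limma unadjusted p = 0.843, adjusted p = 0.976, exact permutation p = 0.9). The differences of *Foxo1* and *Foxo4* both turned positive without mouse 4, at 0.02 and 0.09.

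*Eif4ebp1* is itself a FOXO target. Its signal was 10, 9.98 and 9.70 in u40Hz mice 4, 10 and 11, against 9.52, 10.09 and 9.67 in control mice 1, 6 and 8. The groups overlapped, and the highest and the lowest signal were both from control mice. The log2 fold change was 0.13 (SE 0.22, 95% interval -0.36 to 0.63, or 0.778 to 1.55 times the control level, limma unadjusted p = 0.555, adjusted p = 0.913, exact permutation p = 0.6). Leaving out control mouse 1 gave 0.01, and leaving out control mouse 6 gave 0.30.

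u40Hz mouse 4 had the lowest signal of the 6 mice for 5 of the 9 genes (*Fbxo32*, *Trim63*, *Fbxo31*, *Foxo3* and *Foxo4*) and the highest for *Fbxo21*, and over all probe sets it was lowest for 20.8% and highest for 21.2%. Control mouse 6 was highest for 3 genes (*Fbxo32*, *Fbxo31* and *Eif4ebp1*) and lowest for *Fbxo30*. Over all probe sets control mouse 6 was highest for 18.2% and lowest for 17.7%. This mouse also had the lowest mean of the slow fibre markers (7.42) and of the adipocyte markers (6.67). The part of these cell types in the signals of the 9 genes was not tested beyond the covariate values given.

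**Figure D3:**
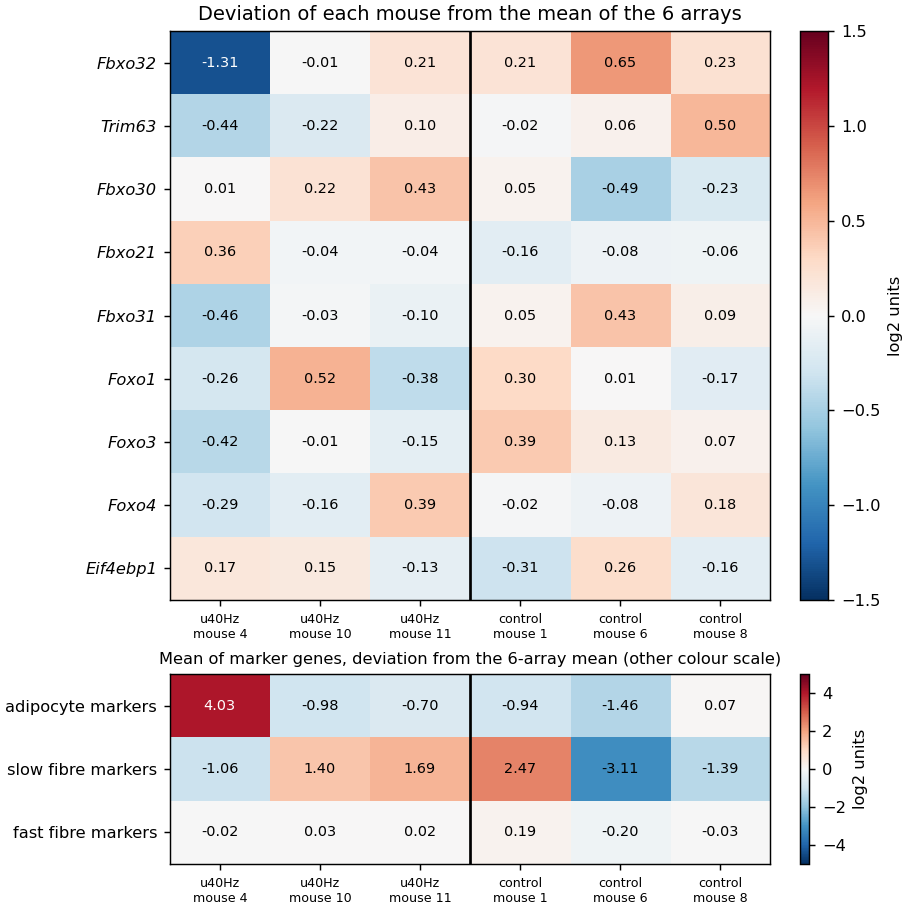
Deviation of each mouse from the mean of the 6 arrays in log2 units, for the 9 genes (upper panel) and for the means of the adipocyte, slow fibre and fast fibre markers (lower panel, with a wider colour scale), with u40Hz mice left and control mice right of the line. The deepest value of the upper panel is -1.31 for *Fbxo32* in mouse 4, the mouse with the highest mean of the adipocyte markers (12.16).

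Across the 6 mice, 36 pairs of the 9 genes were correlated, of which 18 had a positive Pearson's r. An exact permutation p under 0.05 was found for 3 pairs, and none passed after adjustment over the 36 (smallest adjusted p = 0.1). *Fbxo21* and *Foxo3* ran in opposite directions with r = -0.89 (exact permutation p = 0.00278, adjusted 0.1) and Spearman's rho = -0.99 (exact permutation p = 0.00556, adjusted 0.2). Their r was -0.86 without the 2 mice farthest from the median of *Fbxo21*, -0.95 without mouse 4, and -0.85 for deviations from the group means. However, *Fbxo21* ran only from 6.86 to 6.98 without mouse 4, and from 6.94 to 6.98 without control mouse 1 as well. The first 2 of these r values thus rest on very small differences, and the probe set of *Foxo3* was dim. The r for deviations from the group means includes mouse 4, the only mouse with a clearly higher *Fbxo21* signal (7.38). *Fbxo32* and *Fbxo31* went together with r = 0.91 (exact permutation p = 0.0125, adjusted 0.225) and rho = 0.83 (exact permutation p = 0.0583, adjusted 0.42). The r of this pair was 0.90 without mouse 4, but it was 0.30 without the 2 mice farthest from the median of *Fbxo32*, so it rests on those mice. *Fbxo32* and *Fbxo21* had r = -0.93 (exact permutation p = 0.0472, adjusted 0.464) and rho = -0.61 (exact permutation p = 0.206, adjusted 0.736), which rests on mouse 4, since r was -0.18 without it. For the classical pair of atrogenes, *Fbxo32* and *Trim63*, r was 0.70 (exact permutation p = 0.135, adjusted 0.606) and rho was 0.83 (exact permutation p = 0.0583, adjusted 0.42). Without mouse 4 the r of MAFbx and MuRF1 was 0.26.

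For each of the 9 genes the 2 genes with the most similar pattern were taken, by Pearson's r over the 6 arrays, among up to 7838 genes with a mean above the median and a range of at least 0.5 log2 units. Over 6 arrays a high r was reached by many genes, and these values are a description. *D2hgdh* (r = 0.997) and *Cep97* (0.996) followed *Fbxo32*, for which 272 genes had an r over 0.9. *Eef1akmt1* (0.996) and *Atp13a2* (0.993) were most like *Fbxo31*, with 260 such genes. *Taok3* (0.991) and *Qsox1* (0.990) were most like *Trim63*, *Ets1* (0.991) and *Usp53* (0.985) most like *Fbxo30*, and *Ctsz* (0.992) and *Pex16* (0.990) most like *Fbxo21*. Among the FOXO factors, *Foxo1* was followed by *Spag7* (0.982) and *Setd6* (0.976), *Foxo3* by *Hip1* (0.995) and *Evi5l* (0.986), and *Foxo4* by *Tead1* (0.993) and *Raph1* (0.979). *Zfp362* (0.977) and *Irf2* (0.975) were most like *Eif4ebp1*, and it had the fewest genes with an r over 0.9, namely 28. No 2 of the 9 genes shared a gene in these lists.

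Within their gene families the ligases took different places. Of 36 F-box only genes with a probe set, 15 were higher on average and 21 lower in the u40Hz-stimulation group, with a median log2 fold change of -0.06. *Fbxo32* had the lowest difference of the 36 and *Fbxo31* ranked 5 from the lowest, whereas *Fbxo21* ranked 29 and *Fbxo30* ranked 34. Without u40Hz mouse 4, *Fbxo32* ranked 8, *Fbxo31* 10, *Fbxo21* 24 and *Fbxo30* 36 of the 36. The other genes at the ends were *Fbxo6* (-0.53, limma unadjusted p = 0.0228, adjusted p = 0.695), *Fbxo24* (0.46, unadjusted p = 0.113, adjusted p = 0.737) and *Fbxo16* (0.48, unadjusted p = 0.0309, adjusted p = 0.706). *Trim63* ranked 11 of 60 TRIM genes, of which 24 had a higher and 36 a lower mean (median -0.07, from -0.64 for *Trim38* and -0.61 for *Trim62* to 0.43 for *Trim10* and 0.51 for *Trim59*). Among 39 forkhead genes, 19 higher and 20 lower with a median of 0.00, *Foxo3* ranked 2 behind *Foxd4* (-0.45), and *Foxo1* and *Foxo4* ranked 13 and 15. Without mouse 4 the rank of *Foxo3* was 5 and that of *Trim63* was 13. *Foxc1* (0.62) and *Foxr2* (0.74) were the highest of the forkhead family with all mice. The probe sets of *Fbxo24*, *Fbxo16*, *Trim38*, *Trim62*, *Trim10*, *Trim59*, *Foxd4*, *Foxc1* and *Foxo3* were dim, with means under the median of all probe sets. With dim probe sets left out, *Fbxo32* ranked 1, *Fbxo31* 4, *Fbxo21* 17 and *Fbxo30* 21 of 21 F-box only genes. *Trim63* then ranked 5 of 28 TRIM genes. *Foxo1* and *Foxo4* ranked 5 and 6 of 12 forkhead genes.

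The wider pathway was read from 9 lists, in none of which a gene had an adjusted p under 0.05. Over all probe sets, 7.01% had an unadjusted p under 0.05, and for 12.4% the groups did not overlap (6.40% higher and 6.05% lower). The counts of each list below are to be read beside these shares, and no list was tested as a set. Unadjusted p-values are from the same limma model, and the adjusted p of the genes named by the rule (up to 4 for each list, by the smallest unadjusted p) ran from 0.695 to 0.805. Of 11 such genes with an unadjusted p under 0.05, 3 (*Dach2*, *Myh3* and *Mybpc2*) kept it with the adipocyte marker mean as a covariate and likewise without u40Hz mouse 4. With the slow fibre covariate 9 of the 11 kept it, all but *Ppargc1a* and *Mybpc2*. Only *Dach2* kept it in every alternative fit that included it. Its probe set was dim, with a mean under the median of all probe sets (5.57), and was removed with the dim probe sets. The probe sets of *Smad9*, *Fgfbp1*, *Socs3* and *Myod1*, named below, were dim as well. The adipocyte covariate and leaving out mouse 4 are nearly the same check, because the adipocyte markers were high in that mouse alone. Of 24 other ubiquitin ligases of muscle 22 were measured, 5 with a higher and 17 with a lower mean, with a median log2 fold change of -0.08. The 2 with an unadjusted p under 0.05 were both lower. *Klhl40*, an adaptor that stabilises thin filament proteins, had 10.55, 10.96 and 11.23 in u40Hz mice 4, 10 and 11, against 11.45, 11.60 and 11.62 in control mice 1, 6 and 8 (difference -0.64, unadjusted p = 0.0183). *Fbxw7*, the F-box protein that degrades cyclin E and MYC, had a difference of -0.60 (unadjusted p = 0.0407), which was -0.36 without mouse 4 (unadjusted p = 0.132). *Fbxo40*, a muscle-restricted F-box protein that targets IRS1, had -0.45 (unadjusted p = 0.0506), and *Asb2*, an adaptor for desmin and filamins, had -0.84 (unadjusted p = 0.0573). The groups did not overlap for 5 of the 22 genes, all with a lower mean. Over all probe sets, 6.05% were lower without overlap. The 5 were *Klhl40*, *Fbxw7*, *Fbxo40* and, named after their values were seen, *Mul1* (-0.22, unadjusted p = 0.241) and *Mdm2* (-0.13, unadjusted p = 0.47). *Trim54* and *Trim55*, the MuRF relatives of *Trim63*, were named after their values were seen, and differed by -0.27 (unadjusted p = 0.299) and -0.08 (unadjusted p = 0.664).

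Of 21 genes of the SCF core, its E2 enzymes, ubiquitin itself and deubiquitinases, 17 were measured. A lower mean was found for 14 and a higher mean for 3, with a median of -0.21, and none had an unadjusted p under 0.05. *Usp14*, the deubiquitinase of the proteasome, had 9.35, 9.96 and 9.95 in u40Hz mice 4, 10 and 11, against 10.05, 10.13 and 10.52 in control mice 1, 6 and 8, without overlap (difference -0.48, unadjusted p = 0.0797). The scaffold *Cul1* differed by -0.28 (unadjusted p = 0.195), the E2 enzyme *Ube2d2a* by -0.29 (unadjusted p = 0.171), and *Cops5*, which takes NEDD8 off cullins, by -0.28 (unadjusted p = 0.187). The groups of these 3 overlapped.

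Other FOXO targets in muscle were split evenly. Of 33 listed genes 32 were measured, 16 with a higher and 16 with a lower mean, and the median was 0.00. The 2 with an unadjusted p under 0.05 were higher in the u40Hz-stimulation group. *Cat*, which codes for catalase, had 16.31, 15.42 and 15.89 in u40Hz mice 4, 10 and 11, against 15.25, 14.95 and 15.26 in control mice 1, 6 and 8, without overlap (difference 0.72, unadjusted p = 0.0212). *Ppargc1a*, the mitochondrial coactivator PGC-1α, had 13.53, 13.55 and 13.70 in u40Hz mice 4, 10 and 11, against 13.56, 12.17 and 12.66 in control mice 1, 6 and 8 (difference 0.80, unadjusted p = 0.0404). Control mouse 1 reached the level of the u40Hz mice, and it also had the highest slow fibre marker mean (13.00). With the adipocyte covariate *Cat* differed by 0.50 (unadjusted p = 0.057), and with the slow fibre covariate *Ppargc1a* differed by 0.52 (unadjusted p = 0.0547). The growth inhibitor *Ccng2* differed by 0.52 (unadjusted p = 0.0748) and *Txnip*, which restrains glucose uptake, by 0.57 (unadjusted p = 0.0889). The autophagy genes *Bnip3* (0.47, unadjusted p = 0.111), *Map1lc3b* (-0.22, unadjusted p = 0.36) and *Gabarapl1* (-0.18, unadjusted p = 0.339) were named after their values were seen, as well-known targets of FOXO3.

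**Figure D4:**
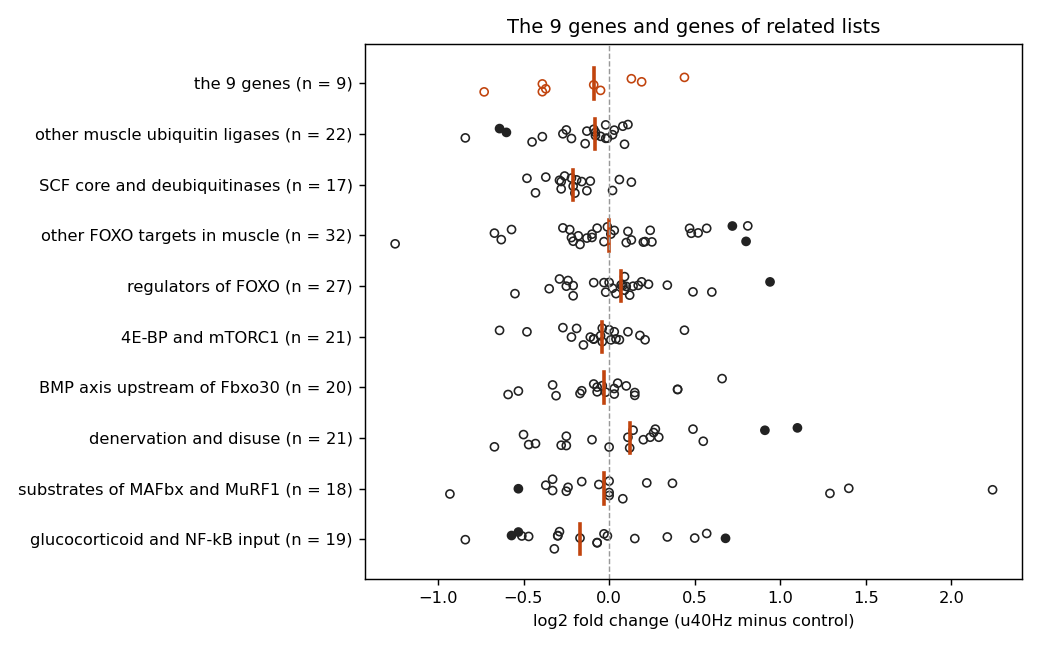
Log2 fold change (u40Hz minus control) of the 9 genes and of the measured genes of 9 related lists, 1 point per gene, with vertical bars at the medians and filled points for an unadjusted limma p under 0.05. The 9 genes have no filled point and a median of -0.09, and the medians of the other lists run from -0.21 to 0.12.

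Among the upstream regulators of FOXO, 27 of 30 listed genes were measured, 17 with a higher and 10 with a lower mean (median 0.07). *Igf1*, the growth factor that restrains FOXO through AKT, was the only one with an unadjusted p under 0.05. It had 12.94, 12.15 and 11.49 in u40Hz mice 4, 10 and 11, against 11.61, 10.92 and 11.24 in control mice 1, 6 and 8, a difference of 0.94 (unadjusted p = 0.0306). Mice 4 and 10 lay above all control mice, and mouse 4, with its high adipocyte markers, was the highest. The difference of *Igf1* was 0.60 with the adipocyte covariate (unadjusted p = 0.0801) and 0.56 without mouse 4 (unadjusted p = 0.0929). *Pik3cb*, a catalytic PI3-kinase subunit, differed by 0.49 (unadjusted p = 0.0611). *Ywhab*, 1 of the 14-3-3 proteins that hold FOXO in the cytoplasm, had 12.20 in mouse 4 and 10.42 to 10.93 in the other 5 mice (difference 0.60, unadjusted p = 0.156). *Sgk1*, an AKT-related kinase of FOXO, differed by -0.29 (unadjusted p = 0.164).

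For translation control, 21 of 25 genes of the 4E-BP and mTORC1 list were measured, 9 with a higher and 12 with a lower mean (median -0.04) and none with an unadjusted p under 0.05. *Eif4ebp2*, the close relative of *Eif4ebp1*, had 9.51, 9.71 and 9.76 in u40Hz mice 4, 10 and 11, against 9.81, 10.77 and 9.84 in control mice 1, 6 and 8 (difference -0.48, unadjusted p = 0.123). These groups did not overlap, and control mouse 6 was far above the rest. *Rragc*, a GTPase that brings mTORC1 to the lysosome, differed by 0.44 (unadjusted p = 0.124), *Ddit4l*, an inhibitor of mTORC1, by -0.64 (unadjusted p = 0.143), and the ribosomal protein gene *Rps6* by -0.27 (unadjusted p = 0.249).

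The BMP axis, which restrains *Fbxo30*, was measured in full. Of its 20 genes 9 had a higher and 11 a lower mean (median -0.03), and none had an unadjusted p under 0.05. Without overlap, *Smad9* was at 4.93, 4.70 and 4.90 in u40Hz mice 4, 10 and 11, against 4.41, 4.48 and 4.44 in control mice 1, 6 and 8 (difference 0.40, unadjusted p = 0.0528). The receptor *Bmpr1b* also differed by 0.40 (unadjusted p = 0.0744). The target gene *Id1* differed by 0.66 (unadjusted p = 0.148) and the receptor *Acvr1* by -0.31 (unadjusted p = 0.229), with overlap.

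A list of genes tied to denervation and disuse, not all of which respond in the same direction, was measured for 21 of 22 entries, 12 with a higher and 8 with a lower mean and 1 with equal means at the top of the scale (median 0.12). The 2 with an unadjusted p under 0.05 were higher, without overlap. *Dach2*, a repressor of myogenin that is known to fall on denervation, had 5.42, 6.10 and 6.78 in u40Hz mice 4, 10 and 11, against 5.12, 4.90 and 4.98 in control mice 1, 6 and 8 (difference 1.10, unadjusted p = 0.0084). Embryonic myosin, *Myh3*, had 6.48, 7.38 and 6.94 in u40Hz mice 4, 10 and 11, against 6.47, 5.43 and 6.17 in control mice 1, 6 and 8 (difference 0.91, unadjusted p = 0.0221). Mouse 4 was the lowest u40Hz mouse for both, and for *Myh3* it lay only just above control mouse 1 (6.48 against 6.47). The acetylcholine receptor subunit *Chrnb1* differed by -0.43 (unadjusted p = 0.106) and *Fgfbp1*, a secreted binding protein of fibroblast growth factors, by 0.49 (unadjusted p = 0.0749).

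All 18 listed substrates of MAFbx and MuRF1 were measured, but 3 were at the top of the scale in every mouse, where no difference can be measured. Of the others 6 had a higher and 9 a lower mean. *Mybpc2*, the fast myosin-binding protein C, had 17.06, 16.76 and 16.63 in u40Hz mice 4, 10 and 11, against 17.23, 17.52 and 17.30 in control mice 1, 6 and 8, without overlap (difference -0.53, unadjusted p = 0.0274). Desmin, *Des*, differed by -0.37 (unadjusted p = 0.0939), also without overlap. *Myod1* differed by -0.93 (unadjusted p = 0.0958). *Myh2*, the IIa myosin, differed by 1.40 (unadjusted p = 0.112) and was lowest in control mouse 6 (15.93), the mouse with the lowest slow fibre marker mean.

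Of 20 genes of the glucocorticoid and NF-κB inputs 19 were measured, 5 with a higher and 14 with a lower mean (median -0.17). *Tsc22d3*, the glucocorticoid-induced leucine zipper, had 13.26, 13.63 and 13.64 in u40Hz mice 4, 10 and 11, against 14.05, 14.14 and 14.04 in control mice 1, 6 and 8 (difference -0.57, unadjusted p = 0.0172). *Stat3*, a factor in cytokine-driven wasting, had 9.32, 9.49 and 9.50 in u40Hz mice 4, 10 and 11, against 9.87, 10.15 and 9.89 in control mice 1, 6 and 8 (difference -0.53, unadjusted p = 0.0195). Neither gene overlapped between the groups. *Hsd11b1*, the enzyme that makes active glucocorticoid inside cells, was higher without overlap, by 0.68 (unadjusted p = 0.0403), with its highest value of 8.85 in mouse 4. The gap between the groups was narrow, from 7.74 in u40Hz mouse 10 to 7.72 in control mouse 6. *Hsd11b1* differed by 0.44 with the adipocyte covariate (unadjusted p = 0.116) and by 0.40 without mouse 4 (unadjusted p = 0.129). *Socs3* differed by -0.47 (unadjusted p = 0.0977). The glucocorticoid receptor gene *Nr3c1* and the receptor's target *Fkbp5*, named after their values were seen, differed by -0.07 (unadjusted p = 0.697) and -0.03 (unadjusted p = 0.943).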

How the data were processed

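Triceps RNA of 6 mice was hybridized to 1 array each. The authors deposited log2 signals per probe set, normalized in Transcriptome Analysis Console (named in the submitters' processing notes). Its summary method and genome build were not given in the sources used here. All deposited values were used without a filter. Symbols are those of GEO's platform table, with positions and promoters from RefSeq tables of GRCm38.p6. Groups were compared with lmFit and eBayes of limma 3.58.1 (R 4.3.3, default settings, two-sided), adjusted over all 22206 probe sets. The model was run on simulated data with independent normal noise for each probe set and no outlying array. That run does not show how the model behaves with an array like that of u40Hz mouse 4. Exact permutation tests used scipy 1.17.1. The number of arrays limits the precision. The 9 genes and the lists were chosen with earlier results of these data known. Named were all 9 genes, up to 4 genes of each list by unadjusted p, the 2 genes most like each of the 9, and the 2 genes at each end of a family. Exceptions are stated. The alternatives were a trended robust prior, array weights, quantile normalization, centring arrays on their medians, dropping dim probe sets, averaging the probe sets of a gene, the adipocyte or slow fibre marker mean as a covariate, and leaving out each mouse.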

Additional observations from a re-analysis of the deposited data

How the results depend on the processing

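In none of the 14 alternative fits did a probe set reach an adjusted p under 0.05. The number of the 9 genes with an unadjusted p under 0.05 was 1 with array weights (*Fbxo30*) and 1 with the slow fibre covariate (*Foxo3*), and 0 to 1 when a mouse was left out. The median of the 9 log2 fold changes (-0.09) was 0.04 with the adipocyte covariate and -0.18 with the slow fibre covariate, and from -0.35 without u40Hz mouse 10 to 0.02 without u40Hz mouse 4. *Foxo1* changed sign with the adipocyte covariate (0.04) and ranged from -0.37 to 0.08 when a mouse was left out. *Foxo4* changed sign with array weights (0.001) and the adipocyte covariate (0.05), and ranged from -0.25 to 0.09. The cause was not tested. The direction of the other 7 genes was kept in every fit that included them, and *Foxo3* was removed with the dim probe sets. Over all probe sets, 1556 had an unadjusted p under 0.05, which is 7.01%. Without the dim probe sets there were 906 of 11104 (8.16%), and without control mouse 6 there were 1007 (4.53%). No paired analysis was possible because the groups share no mouse numbers.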
